A study of Mus musculus with 9 samples.

Results

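Serotonin and noradrenaline neurons of the brain stem were followed through 8 genes, out of 26602 genes with a count, in midbrain tissue of mice with and without DJ-1. The 8 genes were chosen by name as known genes of these neurons, and the rule itself uses no measured value. They were Tph2, Slc6a4, Fev, Htr1a, Gata2 and Gata3 on the serotonergic side, and Dbh and Slc6a2 on the noradrenergic side. All 8 had at least 10 counts over the 9 libraries and were among the 18127 genes compared between genotypes. The samples were midbrain pieces that included the substantia nigra, from 4 DJ-1+/+ (wild type) mice and 5 DJ-1-/- (knockout) mice aged 3 to 4 months, with 1 library per mouse. DJ-1-/- mice carry a targeted Park7 allele in every cell from conception, on a C57BL/6 background obtained by backcrossing, and both genotypes came from heterozygous mothers and shared cages. Messenger RNA was read near its 3′ end (QuantSeq) and the molecules of each gene were counted with unique molecular identifiers (UMIs), the random tags by which PCR copies of a molecule are counted once. The comparison asks whether these transmitter genes differ between genotypes, and how far they vary from mouse to mouse.

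Serotonin neurons of the forebrain-projecting group lie in the raphe nuclei along the midline of the midbrain and pons, and the noradrenaline neurons of the locus coeruleus lie further back, in the pons beside the fourth ventricle. Both types make their transmitter from an amino acid, load it into vesicles with the shared transporter Slc18a2, and take it up again through a transporter of their own. A serotonin neuron is set up by transcription factors that include Gata2, Gata3 and Fev, and both Gata factors are also used by inhibitory neurons of the midbrain, so that neither marks serotonin neurons alone.

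The 3 genes that are most specific for serotonin neurons are shown by the stretch before their start. All 3 were lowest in the same 2 libraries, but so were Htr1a, Dbh and Slc6a2. Each line gives the 250 bases before the first transcribed base in the RefSeq table of GRCm38.p6, 5′ to 3′ on the strand of the gene. Capitals mark letters that matched the GATA-type word AGATAA, whose first base could also be T and whose last base could also be G, which makes 4 words, searched on both strands.
Tph2: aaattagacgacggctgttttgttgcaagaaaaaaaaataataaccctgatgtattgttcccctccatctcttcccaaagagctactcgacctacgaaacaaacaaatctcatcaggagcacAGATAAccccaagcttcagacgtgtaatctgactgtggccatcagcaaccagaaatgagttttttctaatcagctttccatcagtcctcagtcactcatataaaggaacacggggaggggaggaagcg
Slc6a4: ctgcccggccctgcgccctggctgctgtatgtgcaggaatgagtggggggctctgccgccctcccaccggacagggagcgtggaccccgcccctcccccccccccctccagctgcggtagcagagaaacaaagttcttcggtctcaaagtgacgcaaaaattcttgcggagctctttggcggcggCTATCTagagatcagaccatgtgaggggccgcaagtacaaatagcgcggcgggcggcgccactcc
Fev: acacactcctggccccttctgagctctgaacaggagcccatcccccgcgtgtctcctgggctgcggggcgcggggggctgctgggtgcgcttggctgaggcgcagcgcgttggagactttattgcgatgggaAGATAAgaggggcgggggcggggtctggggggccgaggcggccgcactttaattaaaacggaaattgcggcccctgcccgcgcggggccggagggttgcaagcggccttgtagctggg
The Tph2 stretch is chr10:115185023-115185272 on the minus strand, and its AGATAA lies 128 to 123 bases before the start. The Slc6a4 stretch is chr11:76998347-76998596 on the plus strand, and its match is AGATAG read on the other strand, 65 to 60 bases before the start. The Fev stretch is chr1:74885409-74885658 on the minus strand, with AGATAA 118 to 113 bases before the start. Of the 32817 promoters of the table, 26.6% hold at least 1 of the 4 words within the same length. None of the 4 words was found before the starts of Gata2 (both of its starts in the table), Gata3, Htr1a or Dbh. The ETS-type word CCGGAA, searched because Fev is an ETS factor, was present in 12.02% of all promoters and, among these genes, only before Gata3. Slc6a2 was not analysed here for its promoter. These matches describe letters and no binding was measured.

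Library totals ran from 841974 to 1098125 counts, and every DJ-1-/- library was deeper than every DJ-1+/+ library, so that depth and genotype cannot be told apart by leaving libraries out. Values are given as counts and as cpm, the count per 1000000 counts of its library, and the floor used here, 3 counts, was worth 2.73 to 3.56 cpm. The Poisson and binomial intervals and this floor cover counting error only. The intervals of log2 fold changes also take in the spread between mice. Park7, the targeted gene, was at 135 ± 15.7 cpm (SD, n = 4) in wild type and at 20.4 ± 4.54 cpm (SD, n = 5) in knockout libraries, a log2 fold change of -2.71 (SE 0.15). It was the 1 gene of 18127 (0.00552%) with an adjusted p under 0.05 in the quasi-likelihood test of edgeR with Benjamini-Hochberg adjustment. The summed level of 12 dopaminergic neuron markers was 632 to 1234 cpm over the libraries. Single markers varied more: Slc6a3 had 20 to 131 counts, and Pitx3 had 0 to 6. The sum therefore does not show how much of the substantia nigra each piece held.

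Some libraries stood apart in marker genes of brain regions, across genotypes. The 9 Hox genes of a hindbrain list, which are silent in front of the hindbrain, summed to 132, 38, 273 and 4 counts in DJ-1+/+ replicates 1 to 4 and to 203, 207, 77, 200 and 0 counts in DJ-1-/- replicates 1 to 5. DJ-1+/+ replicate 4 and DJ-1-/- replicate 5 were thus at or near 0, while the other 7 libraries held 43.2 to 318 cpm. The same 2 libraries were the highest for 7 thalamus and forebrain genes, at 1007 and 1008 cpm against 455 to 636 cpm in the others, and Tcf7l2, a transcription factor of the thalamus, had 286 and 330 counts there against 75 to 161. Their dopaminergic markers summed to 632 and 891 cpm, against 736 to 1234 cpm in the others. DJ-1+/+ replicate 1 had the highest cerebellar sum, 1616 cpm against 549 to 844 cpm elsewhere. The split into 7 and 2 libraries was made from the Hox counts after they had been seen, and member values are given below with and without those 2.

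**Figure D1:**
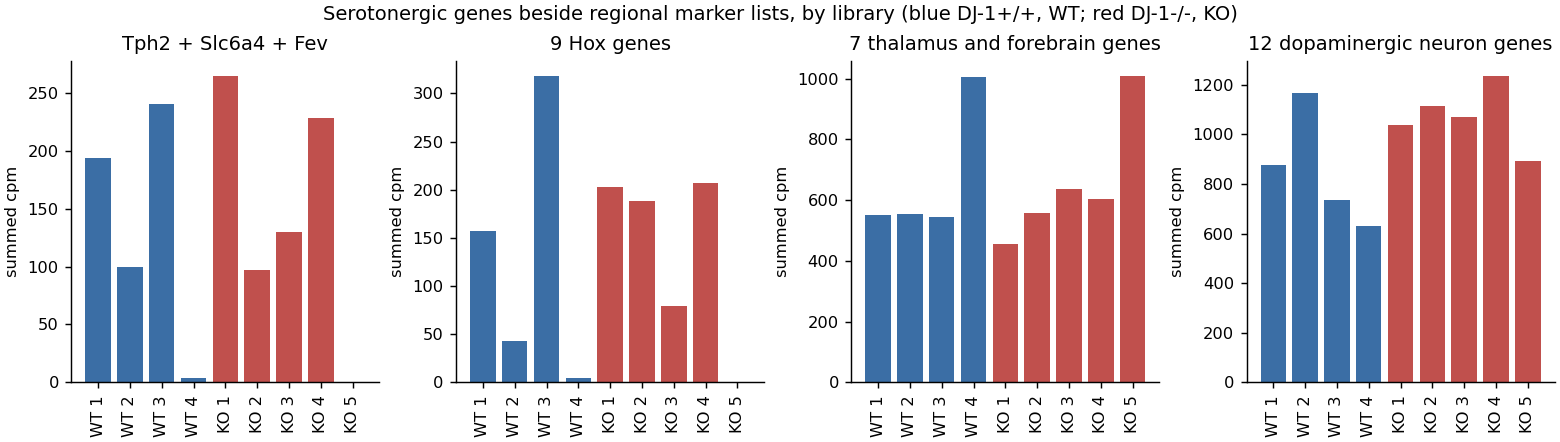
Summed cpm (y axis, linear from 0) of the serotonergic genes Tph2, Slc6a4 and Fev, of 9 Hox genes, of 7 thalamus and forebrain genes and of 12 dopaminergic neuron genes in each of the 9 libraries (x axis, blue DJ-1+/+ and red DJ-1-/-). In DJ-1+/+ replicate 4 and DJ-1-/- replicate 5 the first 2 sums are at most 4.51 cpm and the thalamus sum is highest, at 1007 and 1008 cpm.

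Tph2 encodes the neuronal tryptophan hydroxylase, the rate-limiting enzyme of serotonin synthesis, and occupies bases 115078641 to 115185022 of chromosome 10, minus strand (GENCODE M21, GRCm38, as for all positions of genes below). It had 81, 37, 87 and 2 counts in DJ-1+/+ replicates 1 to 4 and 111, 44, 72, 100 and 0 counts in DJ-1-/- replicates 1 to 5. Each genotype had 1 library at or under the floor and 1 library at about 40 cpm, and the remaining libraries of both lay between 74.3 and 111 cpm, so that the groups overlapped over nearly their whole range. Means were 60.4 ± 47.1 cpm (SD, n = 4) for DJ-1+/+ and 65.8 ± 46.2 cpm (SD, n = 5) for DJ-1-/- libraries. The log2 fold change, DJ-1-/- over DJ-1+/+, was 0.12 (SE 0.63, 95% interval -1.22 to 1.45, adjusted p = 0.9999 by the quasi-likelihood test of edgeR with Benjamini-Hochberg adjustment), and the exact two-sided permutation p of the difference in mean cpm was 0.841. Over the 7 libraries with Hox counts the means were 79.8 ± 32.8 (SD, n = 3) and 82.2 ± 32.2 cpm (SD, n = 4), and the log2 fold change was 0.02 with an interval of -0.59 to 0.64. A smaller number of serotonin neurons in the piece and less Tph2 RNA per neuron cannot be told apart in bulk tissue, and this holds for every gene below.

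Slc6a4, the serotonin transporter that clears serotonin from the synapse and the target of many antidepressants, lies at 76998603 to 77032340 of chromosome 11, plus strand. Its counts were 68, 42, 98 and 0 in the DJ-1+/+ libraries and 123, 52, 49, 97 and 0 in the DJ-1-/- libraries. The libraries at 0 were the same 2 in which Tph2 was at or under its floor, and the floor of 3 counts that 0 allows was worth 3.39 and 2.92 cpm there. The two-sided Poisson intervals in the plot of the 8 genes by library reach slightly higher, to 4.16 and 3.59 cpm. Elsewhere the lowest value was 47.4 cpm and the highest 123 cpm, both in DJ-1-/- libraries, with the 3 DJ-1+/+ values between them. Means were 60.6 ± 48.6 cpm (SD, n = 4) and 64.3 ± 48.4 cpm (SD, n = 5), a log2 fold change of 0.08 (SE 0.66, interval -1.31 to 1.47). Without the 2 Hox-poor libraries the value was -0.02 (SE 0.30), so its sign rests on them. An antisense gene within Slc6a4, Gm12343, had 0 counts in every library.

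Fev (Pet-1), the ETS factor restricted to serotonin neurons in the brain, was the lowest of the 3, at 74881509 to 74885419 of chromosome 1, minus strand. Its counts were 14, 9, 22 and 1 in the DJ-1+/+ libraries and 30, 11, 5, 24 and 0 in the DJ-1-/- libraries. The highest and the 2 lowest values above the floor, 30.03, 5.16 and 10.02 cpm, were all in DJ-1-/- libraries, and the groups overlapped. Its means were 13.4 ± 10.3 cpm (SD, n = 4) and 14.0 ± 12.9 cpm (SD, n = 5), with a log2 fold change of 0.06 (SE 0.70, interval -1.42 to 1.55), and -0.01 (SE 0.47) without the 2 Hox-poor libraries.

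Htr1a, the serotonin receptor that acts as the autoreceptor on the cell body of serotonin neurons and is also made by many other neurons, lies at 105443639 to 105448122 of chromosome 13, plus strand. Its counts were 14, 22, 24 and 11 in the DJ-1+/+ and 39, 25, 20, 25 and 11 in the DJ-1-/- libraries. The 2 Hox-poor libraries were again the lowest, at 12.4 and 10.7 cpm, but clearly above the floor, and DJ-1-/- replicate 1 was the highest. Its means were 20.5 ± 7.20 cpm (SD, n = 4) and 23.8 ± 10.2 cpm (SD, n = 5), a log2 fold change of 0.21 (SE 0.32, interval -0.47 to 0.90). The value was the same to 2 decimals over the 7 libraries, 0.21 (SE 0.28).

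**Figure D2:**
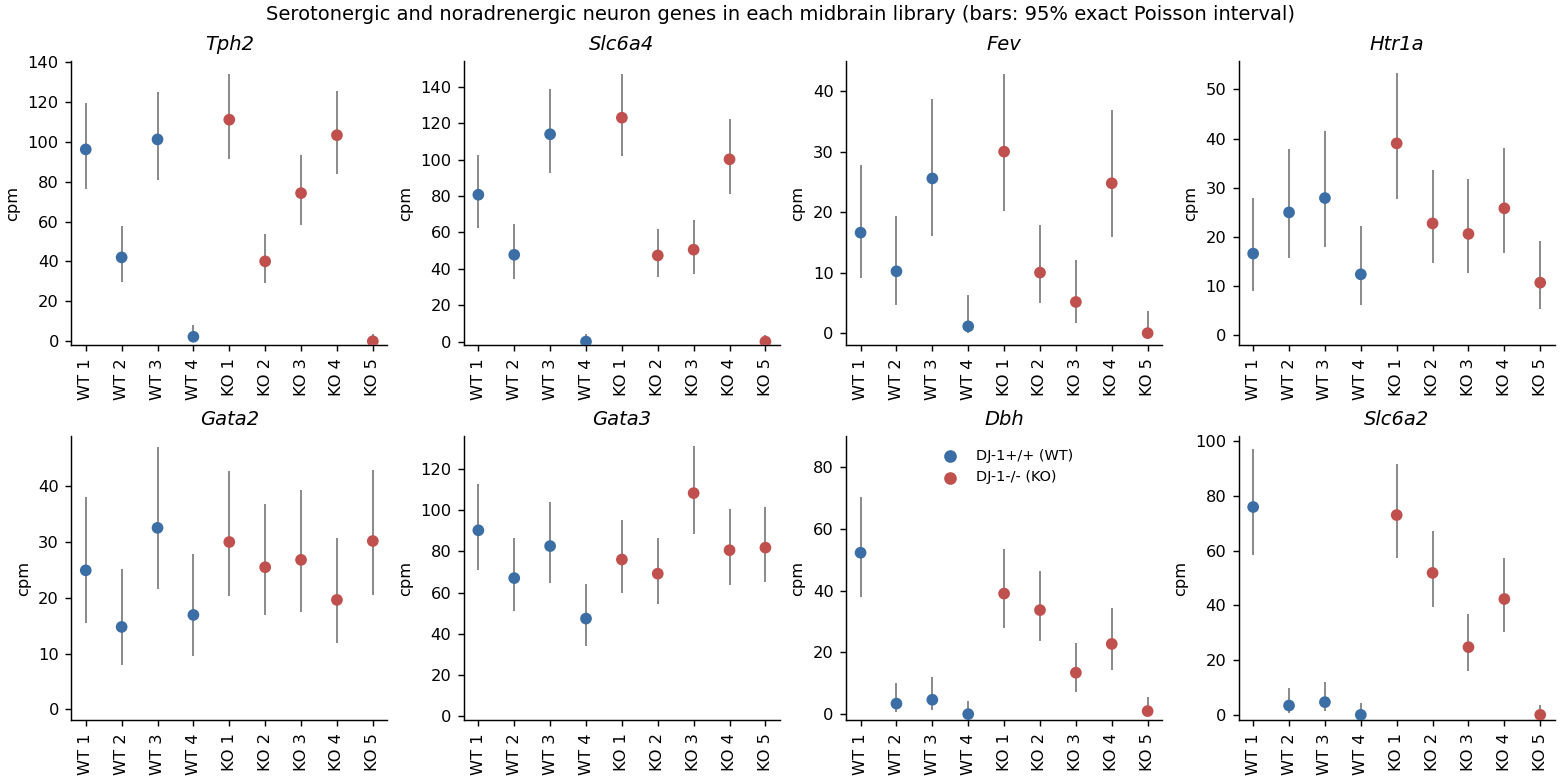
Level of each of the 8 genes in cpm (y axis, linear) in each library (x axis, WT for DJ-1+/+ in blue and KO for DJ-1-/- in red), with grey bars for the exact 95% Poisson interval of the count. Tph2, Slc6a4 and Fev are at or near 0 in WT 4 and KO 5, Dbh and Slc6a2 are at most 4.65 cpm in WT 2, WT 3, WT 4 and KO 5, and Gata2 and Gata3 are above the floor in all 9 libraries.

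Gata2 and Gata3, the zinc finger factors that switch on the serotonergic program and that also select the inhibitory fate in the midbrain, did not follow the 3 genes above. Gata2 lies at 88193891 to 88207032 of chromosome 6, plus strand, and had 21, 13, 28 and 15 counts over the DJ-1+/+ and 30, 28, 26, 19 and 31 over the DJ-1-/- libraries. In DJ-1-/- replicate 5, which had no Tph2 count, Gata2 was at 30.2 cpm, the second of all 9 libraries after DJ-1+/+ replicate 3 at 32.6 cpm. Means were 22.3 ± 8.12 cpm (SD, n = 4) and 26.4 ± 4.31 cpm (SD, n = 5), and the log2 fold change was 0.25 (SE 0.25, interval -0.28 to 0.77). Over the 7 libraries it was 0.07 (SE 0.28), so most of this value was lost without the 2 Hox-poor libraries.

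Gata3 lies at 9857078 to 9890034 of chromosome 2, minus strand, and had 76, 59, 71 and 42 counts over the DJ-1+/+ and 76, 76, 105, 78 and 84 over the DJ-1-/- libraries. Its lowest library was DJ-1+/+ replicate 4, at 47.4 cpm, while DJ-1-/- replicate 5 was at 81.9 cpm, in the middle of the others. Means were 71.8 ± 18.9 cpm (SD, n = 4) and 83.2 ± 14.9 cpm (SD, n = 5). The log2 fold change was 0.21 (SE 0.17, interval -0.14 to 0.56), and 0.05 (SE 0.16) over the 7 libraries, most of it being lost without the 2 Hox-poor libraries. Genes that overlap Gata3 in the annotation, Gm13256, 4930412O13Rik and 9230102O04Rik, had 0, 1 and 3 counts over all libraries.

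Dbh, which encodes dopamine beta-hydroxylase, the enzyme that turns dopamine into noradrenaline, lies at 27165233 to 27183200 of chromosome 2, plus strand. It had 44, 3, 4 and 0 counts in DJ-1+/+ replicates 1 to 4 and 39, 37, 13, 22 and 1 counts in DJ-1-/- replicates 1 to 5. In the DJ-1+/+ group 1 library was the highest of all 9, at 52.3 cpm, and the other 3 were at 4.65 cpm or less, while in the DJ-1-/- group 4 libraries lay between 13.4 and 39.0 cpm and 1 was under the floor. Means were 15.1 ± 24.9 cpm (SD, n = 4) and 22.0 ± 15.4 cpm (SD, n = 5), with a log2 fold change of 0.56 (SE 0.80, interval -1.13 to 2.25) and an exact two-sided permutation p of 0.619.

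Slc6a2, the noradrenaline transporter, lies at 92960079 to 93001667 of chromosome 8, plus strand, and put the libraries above 0 in the same order as Dbh. Its counts were 64, 3, 4 and 0 in the DJ-1+/+ and 73, 57, 24, 41 and 0 in the DJ-1-/- libraries. As for Dbh, DJ-1+/+ replicate 1 was the highest, at 76.0 cpm, and the groups overlapped over their whole range. Means were 21.0 ± 36.7 cpm (SD, n = 4) and 38.4 ± 27.7 cpm (SD, n = 5), the widest difference in log2 among the 8 genes, at 0.89 (SE 0.84, interval -0.90 to 2.67).

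The noradrenergic values turned on DJ-1+/+ replicate 1. Without it the log2 fold changes were 2.98 for Dbh and 3.79 for Slc6a2, with unadjusted p of 0.00362 and 0.00172 and an adjusted p of 0.999 for both in the quasi-likelihood test of edgeR with Benjamini-Hochberg adjustment. The exact permutation p of the difference in mean cpm was at its lowest 0.107 for Dbh and 0.143 for Slc6a2 over all the tests that left out 1 library. DJ-1+/+ replicate 1 was also the library with the highest cerebellar sum, and the part of tissue composition in these values was not tested. Without the 2 Hox-poor libraries the values were 0.45 (SE 0.59) for Dbh and 0.79 (SE 0.59) for Slc6a2.

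**Figure D3:**
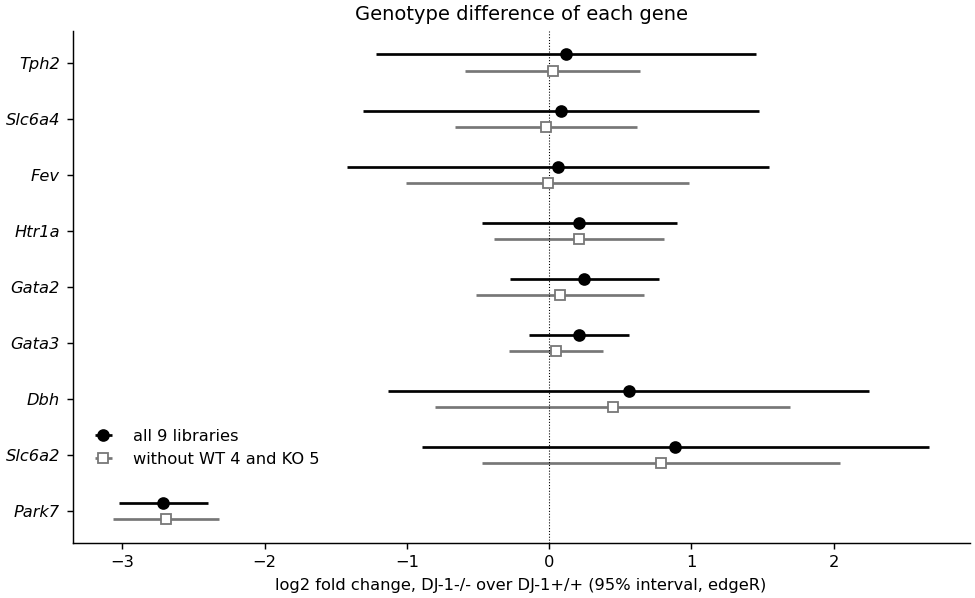
Log2 fold change of each gene, DJ-1-/- over DJ-1+/+ (x axis), with 95% intervals from edgeR, for all 9 libraries (black circles) and without DJ-1+/+ replicate 4 and DJ-1-/- replicate 5 (open grey squares). All 8 intervals cross 0 in both fits, and Park7, shown for scale, lies at -2.71.

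Of the 8 genes, 0 had an adjusted p under 0.05, against 0.00552% of all genes tested, and 0 passed an unadjusted 0.05 in the quasi-likelihood test of edgeR, against 2.82% of all genes (511 of 18127). DESeq2 likewise gave 0 of 8 at either threshold. None of the 8 was without overlap between genotypes, which 1.25% of all genes were. All 8 fitted values were above 0, with a median log2 fold change of 0.21 against 0.01 over all genes tested, but the sign of Tph2, Slc6a4, Fev and Htr1a turned under other settings: with log2 cpm of Xist in the model they were -0.30, -0.40, -0.44 and -0.09. Xist, from the inactive X chromosome, was at 0 to 2 counts in 3 libraries (DJ-1+/+ replicates 1 and 4, and replicate 5 of DJ-1-/-), which had 113 to 152 counts of the Y-linked Ddx3y, so that the mice with Y-linked expression were unevenly spread over genotypes. DJ-1+/+ replicate 1 was one of them and had 81 Tph2 counts, while the other 2 were the Hox-poor libraries. The widths of the intervals set what could be seen: for Tph2 they run from a 0.429-fold to a 2.74-fold level in DJ-1-/- mice, and for Gata3 from 0.906-fold to 1.48-fold.

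The spread between mice was far above counting error for the transmitter genes and close to it for Gata2. The coefficient of variation of cpm over the 9 libraries was 68.9% for Tph2, 72.5% for Slc6a4 and 80.8% for Fev, where counting error alone gives 13.0%, 13.0% and 27.9%. It was 101% for Dbh and 102% for Slc6a2, where counting gives 23.5% and 18.4%. For Gata2 it was 25.3% against 20.7%, for Gata3 21.5% against 11.6% and for Htr1a 38.7% against 21.7%. Measured as chi-square per degree of freedom against equal cpm, Tph2 reached 28.9, a value met or passed by 0.248% of the 18127 genes, whose median was 1.12 and whose 95th percentile was 3.90. Slc6a4 was at 31.6, Slc6a2 at 28.9, Dbh at 17.4 and Fev at 8.67, while Gata3 at 3.33, Htr1a at 3.24 and Gata2 at 1.43 were inside that percentile. Without the 2 Hox-poor libraries the coefficient of variation was 36.6% for Tph2, 40.5% for Slc6a4 and 54.1% for Fev, so much of their spread rests on those 2. It was 76.1% for Dbh, 75.7% for Slc6a2, 24.3% for Gata2, 17.1% for Gata3 and 27.8% for Htr1a.

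Leaving aside the 2 Hox-poor libraries, the noradrenergic genes varied far more than the other 6. The highest library held 2.77 times the lowest for Tph2, 2.60 times for Slc6a4, 5.82 times for Fev, 2.35 times for Htr1a, 2.20 times for Gata2 and 1.62 times for Gata3. For Dbh the ratio was 15.3 and for Slc6a2 22.3, with the lowest values, in DJ-1+/+ replicate 2, at 3 counts each. DJ-1+/+ replicates 2 and 3 therefore held serotonergic transcripts with noradrenergic ones at or near the floor. Of the counts of Dbh, Slc6a2, Tph2 and Slc6a4 together, the noradrenergic pair made up 42.0%, 7.06% and 4.15% in DJ-1+/+ replicates 1 to 3 and 32.4%, 49.5%, 23.4% and 24.2% in DJ-1-/- replicates 1 to 4. The exact binomial 95% intervals were 2.63% to 14.7% and 1.81% to 8.004% in DJ-1+/+ replicates 2 and 3, below the lowest bound elsewhere, 17.1%.

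Genes of one transmitter system kept similar proportions to each other where they were measurable. Slc6a4 made up 40.5% to 54.2% of the counts of Slc6a4 and Tph2 in the 7 libraries, 50.6 ± 4.29% (SD, n = 3) in DJ-1+/+ and 49.1 ± 6.10% (SD, n = 4) in DJ-1-/-. Slc6a2 made up 59.3% to 65.2% of Slc6a2 and Dbh in the 5 libraries with at least 13 counts of each. Fev made up 14.7% to 21.3% of Fev and Tph2 in 6 of the 7 libraries and 6.49% in DJ-1-/- replicate 3, where the exact binomial interval was 2.14% to 14.5%. Gata2 made up 18.1% to 28.3% of Gata2 and Gata3 in all 9 libraries, the Hox-poor ones included, at 26.3% and 27.0%.

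Across the 7 libraries with Hox counts, Tph2 and Slc6a4 rose and fell together, with Pearson r = 0.89 on log2(cpm + 1) (exact permutation p = 0.000595, adjusted 0.00357 by Benjamini-Hochberg over 6 pairs) and Spearman rho = 0.96 (exact permutation p = 0.00278, adjusted 0.0167). Slc6a4 and Fev gave r = 0.92 (exact permutation p = 0.00794, adjusted 0.0238) and rho = 0.89 (exact permutation p = 0.0123, adjusted 0.0369). Tph2 and Fev gave r = 0.67 (exact permutation p = 0.113, adjusted 0.169) and rho = 0.86 (exact permutation p = 0.0238, adjusted 0.0476). Leaving out the 2 libraries farthest from the median of the first gene, DJ-1+/+ replicate 2 and DJ-1-/- replicate 2, gave r = 0.97, 0.99 and 0.99 for these pairs over 5 libraries. Since cpm shares the library total between genes and all 3 genes have their RNA from the same piece of tissue, the relation holds between mice and says nothing of single neurons.

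Tph2 and Htr1a did not pass the test in these 7 libraries (r = 0.26, exact permutation p = 0.556, adjusted 0.556; rho = 0.64, exact permutation p = 0.139, adjusted 0.167), and r was 0.61 over 5 libraries without DJ-1+/+ replicate 2 and DJ-1-/- replicate 2. Tph2 and Gata3 gave r = 0.49 (exact permutation p = 0.266, adjusted 0.320) and rho = 0.25 (exact permutation p = 0.595, adjusted 0.595), and r turned to -0.99 over 5 libraries without DJ-1+/+ replicate 2 and DJ-1-/- replicate 2, so its sign rests on those. Gata2 and Gata3, which did not split by Hox counts, gave r = 0.59 over 9 libraries (exact permutation p = 0.0953, adjusted 0.169) and rho = 0.57 (exact permutation p = 0.121, adjusted 0.167), and r was -0.0017 without DJ-1+/+ replicates 2 and 4, on which the relation rests. For Dbh and Slc6a2 no coefficient is given, since 4 libraries lay at or near the floor and 5 apart from them.

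**Figure D4:**
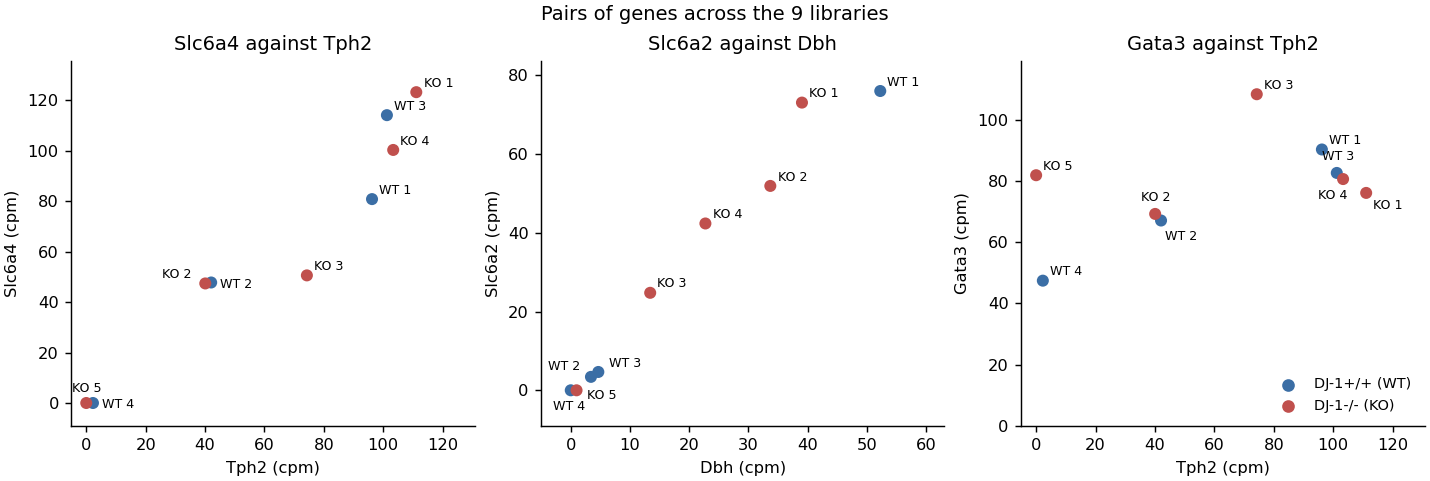
Slc6a4 against Tph2, Slc6a2 against Dbh and Gata3 against Tph2, in cpm on linear axes, with 1 point per library labelled by genotype (WT, DJ-1+/+ in blue; KO, DJ-1-/- in red) and replicate. The first 2 pairs run from near 0 to their highest libraries together, while Gata3 is at 47.4 and 81.9 cpm in the 2 libraries where Tph2 is at or near 0.

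The 2 Hox-poor libraries lay below all 7 others for 6 of the 8 genes, Tph2, Slc6a4, Fev, Htr1a, Dbh and Slc6a2, where 5.79% of all 18127 genes did so, and above all 7 others for none, where 5.52% of all genes did. On the same measure 4 of 16 genes of the monoamine synthesis, packaging and breakdown list were below, 6 of 14 of the serotonergic identity list, 4 of 9 of the noradrenergic identity list and 3 of 12 of the developmental partners of the Gata factors. Of the serotonergic identity list 1 gene was above, and of the other 3 lists none. Of 13 serotonin receptor genes with a count 2 were below, Htr1a among them, and 2 above, and of 8 adrenergic receptor genes 1 was below and 3 above. Slc18a2, the vesicular transporter shared with dopamine neurons, had 31 and 67 counts there against 84 to 135. Gch1, which makes the cofactor of the hydroxylases, had 6 and 14 against 27 to 52.

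Among genes that set up or mark serotonin neurons, Lmx1b, a LIM factor upstream of Fev, had 14 and 11 counts in the 2 libraries against 18 to 31, and Slc17a8, a vesicular glutamate transporter that many raphe neurons carry, had 4 and 3 against 11 to 33. Phox2a was at 0 in both and at 1 to 6 counts in the others. Tal1, a partner of Gata2 in inhibitory neurons of the midbrain, had 26 and 68 counts against 38 to 73. The part of dissection in these differences was not tested.

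The genes whose pattern over the 9 libraries was closest to the sum of Tph2, Slc6a4 and Fev, by Pearson r of log2(cpm + 1) among 14320 genes with a mean of at least 5 counts, were Cmklr1 (r = 0.98), Lhx4 (0.98), Slc6a5 (0.97), Trim34a (0.97), Hoxc4 (0.96), Lbh (0.96), Acrbp (0.96) and Nxph4 (0.95). Slc6a5 is the transporter of glycinergic neurons of the hindbrain and spinal cord, and its counts were 88, 27, 98 and 0 in the DJ-1+/+ and 118, 93, 63, 55 and 0 in the DJ-1-/- libraries. Hoxc4 is a member of the Hox list, and Hoxb3 ranked 9. These coefficients are led by the 2 Hox-poor libraries, which lie far from the other 7.

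Among the closest to the sum of Dbh and Slc6a2 were Tbx20 (r = 0.95), a T-box factor of hindbrain motor neurons and heart, and Ednra (0.95), Lamtor5 (0.94), Ankrd34b (0.94), Pdgfd (0.93), Scpep1 (0.92) and Gas2l1 (0.91). Tbx20 had 7, 3, 4 and 0 counts over the DJ-1+/+ and 15, 13, 6, 6 and 1 over the DJ-1-/- libraries, near counting error in most of them. With 9 libraries and 14320 genes, high coefficients arise for many genes, and no p is given.

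The wider pathway was described from gene lists. In the list of monoamine synthesis, packaging and breakdown, 14 of 16 genes were tested, 9 higher and 5 lower in DJ-1-/-, with a median log2 fold change of 0.05 against 0.01 over all genes. In it 1 gene had an unadjusted p under 0.05, Th, the tyrosine hydroxylase of dopamine and noradrenaline neurons (0.61, SE 0.24, unadjusted p = 0.0226 in the quasi-likelihood test of edgeR). The lowest was Slc18a1, a vesicular monoamine transporter of endocrine cells (-0.33, SE 0.82), at 0 to 3 counts. Th belongs also to the dopaminergic list, of which 5 of 12 genes had an unadjusted p under 0.05, all higher in DJ-1-/-, against 2.82% of all genes tested. The sums of that list were 875, 1166, 736 and 632 cpm in DJ-1+/+ replicates 1 to 4. They ran from 891 to 1234 cpm in DJ-1-/- libraries, so that DJ-1+/+ replicate 2 lay inside the DJ-1-/- range. Of the serotonergic identity list all 14 genes were tested, 6 higher and 8 lower. The median of this list was -0.04, and 0 of its genes had an unadjusted p under 0.05. Its highest was Htr1d, an autoreceptor on serotonin terminals (0.63, SE 0.38).

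On the noradrenergic identity list 8 of 10 genes were tested, 4 higher and 4 lower, with a median of 0.10. Ret, a receptor for glial cell-derived growth factors that dopamine neurons also carry, had an unadjusted p of 0.0405 in the quasi-likelihood test of edgeR (0.25, SE 0.11). Phox2a, a factor that switches on Dbh, was highest (1.07, SE 0.89), at 0 to 6 counts. Npy, a peptide made by many neurons, was lowest (-0.54, SE 0.34). Of the developmental partners of the Gata factors 12 of 13 were tested, 10 higher and 2 lower, with a median of 0.11. Among these Tal1 had an unadjusted p of 0.0471 in the same test (0.40, SE 0.19), and the extremes were Nkx6-1 (0.60, SE 0.44) and Tal2 (-1.57, SE 0.91), the latter at 0 to 3 counts in the 7 libraries.

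Receptors receive both transmitters on many types of neuron. Of 14 serotonin receptor genes, Htr1a included, 12 were tested, 10 higher and 2 lower in DJ-1-/-, with a median of 0.31 on the log2 scale and 0 at an unadjusted p under 0.05. The extremes were Htr4 (1.21, SE 0.90), at 0 to 5 counts, and Htr1b (-0.22, SE 0.22), the autoreceptor on serotonin terminals. Of 9 adrenergic receptor genes 8 were tested, 4 in each direction, with a median of 0.00. Adra2c, an inhibitory receptor for noradrenaline, had an unadjusted p of 0.0442 in the quasi-likelihood test of edgeR (0.58, SE 0.26). Adrb3 was lowest (-0.62, SE 0.68), at 0 to 8 counts. In none of these lists did a gene reach an adjusted p under 0.05, and the share of all genes with an unadjusted p under 0.05 was 2.82%.

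Markers of other tissues and neurons are given beside these values. All 12 cerebellar genes had a fitted value below 0 in DJ-1-/-, 6 of them at an unadjusted p under 0.05, against 2.82% of all genes tested. The median of the 12 was -0.91 on the log2 scale. Summed levels were 549 to 1616 cpm in DJ-1+/+ and 581 to 817 cpm in DJ-1-/- libraries. The cerebellar sum of 1616 cpm was that of DJ-1+/+ replicate 1. DJ-1+/+ replicates 2 to 4, at 694, 549 and 844 cpm, spanned the DJ-1-/- range. All 12 choroid plexus genes were below 0, 7 of them at that threshold, with a median of -1.63 and summed levels of 380 to 1247 cpm against 392 to 520 cpm. The high sums were those of DJ-1+/+ replicate 4, one of the Hox-poor libraries, at 1247 cpm and of DJ-1+/+ replicate 1 at 662 cpm, while DJ-1+/+ replicates 2 and 3, at 380 and 412 cpm, lay at the low end of the DJ-1-/- range or below it. All 12 dopaminergic genes were above 0, with a median of 0.34. Of the 9 Hox genes 2 were higher and 7 lower, with a median of -0.12, of 6 motor and cholinergic genes 4 were higher and 2 lower, with a median of 0.31, and of 6 thalamus and forebrain genes tested 3 lay on each side, with a median of -0.03. None of these 3 lists held a gene at an unadjusted p under 0.05. Of the locus coeruleus markers Dbh, Slc6a2 and Phox2a all 3 were above 0, with none at that threshold. The part of these tissues in the values of the 8 genes was not tested.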

How the data were processed

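The authors deposited, for each mouse, whole UMI counts per Ensembl gene without normalization, listing genes with at least 1 count. The submitters' processing notes name fastp 0.20.0, STAR 2.7.3a, Subread, featureCounts 2.0.0, UMI-tools 1.0.0 and GRCm38. The annotation release and the strand setting are not given in the sources used here. Counts were joined by identifier, with 0 for a gene absent from a library. Symbols were found for 26570 of 26602 identifiers.

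Genes whose 9 libraries summed to 10 counts or more were tested with edgeR 4.0.16 (TMM, glmQLFit, glmQLFTest, genotype as the only term) in R 4.3.3 with limma 3.58.1, and adjusted by Benjamini-Hochberg over all 18127. The SE is the log2 fold change divided by the square root of F. Cpm used library totals. Exact two-sided permutation tests over 126 splits (scipy 1.17.1) cannot go below p = 0.0159. Correlations used all pairings, over 7 libraries where a gene split by Hox counts in place of the 9 foreseen. All p-values take the library, 1 per mouse, as the unit, so the spread behind them also holds differences between the dissected pieces. A chi-square comparison of libraries of the same genotype found none to be a copy of another.

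The genes and lists were chosen with earlier results of these data known. Text names the 8 genes, Park7, list genes at an unadjusted p under 0.05 or at the extremes of a list, and the 8 genes closest to each sum, and some of these items are not reported here. Genes given for the Hox-poor libraries, Lmx1b, Slc17a8, Slc18a2, Gch1 and Tcf7l2, with Hoxb3, Xist and Ddx3y, were named after their values were seen. Motif searches covered 250 bases. Alternatives were RLE factors, library totals, DESeq2 1.42.0, other filters, a replicate block, Xist as covariate, thinning to 841974 counts, each library left out, and, added after seeing the data, both Hox-poor libraries left out. The fit was tested on simulated data.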

Additional observations from a re-analysis of the deposited data

Results flagged for a closer look

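Of 26 groups of 4 or 5 libraries examined with Dixon's test, 3 held a value far from the others, where chance alone gives about 1 in 20, or 1.3 groups. Dbh in DJ-1+/+ replicate 1, at 52.3 cpm, stood far above the other DJ-1+/+ libraries, which were at 4.65 cpm or less. Slc6a2 in the same library, at 76.0 cpm, did so too, and these 2 flags rest on 1 library and on genes of 1 cell type. The summed level of the thalamus and forebrain genes in DJ-1+/+ replicate 4, at 1007 cpm, stood above 543 to 555 cpm in the other DJ-1+/+ libraries.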

How the results depend on the processing

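In all settings run, with edgeR or DESeq2, 0 of the 8 genes had an adjusted p under 0.05. Their unadjusted calls were Slc6a2 with no filter on low counts, and Dbh and Slc6a2 without DJ-1+/+ replicate 1 and with the replicate block (log2 fold changes of 1.33, SE 0.54, and 1.73, SE 0.52), which changed no other unadjusted call of the 8. Replicate numbers come from the sample titles, and same-numbered libraries deviated together with r = 0.29, 0.06, -0.12 and -0.20. Differently numbered pairs ran from -0.37 to 0.56, so these values cannot tell whether same-numbered libraries share more than a number. With the Xist covariate the log2 fold changes of Tph2, Slc6a4, Fev and Htr1a were -0.30, -0.40, -0.44 and -0.0886, and the cause was not tested. Without the 2 Hox-poor libraries Slc6a4 was -0.0239, its difference in mean -0.523 cpm, and Fev -0.0103. Genes with an adjusted p under 0.05 numbered 36 with no filter, 8 with the replicate block and 2 without the Hox-poor libraries, and those with an unadjusted p under 0.05 numbered 802 with no filter, 338 with filterByExpr and 235 with DESeq2. Without the libraries farthest from the median the correlation of Gata2 with Gata3 was -0.0017 and of Tph2 with Gata3 -0.99.

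With each library left out in turn, log2 fold changes ran from -0.29 to 0.49 (Tph2), -0.34 to 0.59 (Slc6a4), -0.43 to 0.58 (Fev), 0.09 to 0.49 (Gata2), 0.05 to 0.34 (Gata3), -0.0399 to 0.40 (Htr1a), 0.14 to 2.98 (Dbh) and 0.47 to 3.79 (Slc6a2). The sign of Tph2, Slc6a4 and Fev turned without DJ-1+/+ replicate 2 or 4 or DJ-1-/- replicate 1 or 4, and that of Htr1a without DJ-1-/- replicate 1. Differences in mean cpm ran from -14.1 to 21.8 (Tph2), -16.6 to 21.4 (Slc6a4), -3.48 to 4.67 (Fev) and -0.504 to 6.58 (Htr1a). Counts of genes ran from 1 to 2 at the adjusted and from 338 to 732 at the unadjusted threshold. Over all results and settings, 254 values kept their direction and side of the threshold or stayed within 1.5 times, 35 turned sign and 9 counts moved. With counts thinned to 841974 per library all 8 values stayed above 0. In libraries with 0 to 5 counts the levels of Fev, Dbh and Slc6a2 are near the floor, so that depth limits what can be shown there.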
